A study of Mus musculus with 48 samples.

Results

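The liver transcriptome was compared between the early and the late subjective night. Of 48 hourly pools, 16 entered the comparison, chosen by sampling hour alone: 8 early pools at circadian hours 13 to 16 (CT37 to CT40 and CT61 to CT64) and 8 late pools at hours 19 to 22 (CT19 to CT22 and CT43 to CT46). Circadian time (CT) counts hours from subjective dawn, so that CT12 is subjective dusk. All groups were male C57BL/6J mice, 6 weeks old, with no genetic change or treatment given, held in 12 h of light and 12 h of dark and then moved to constant darkness, and they differed by sampling time only. Liver RNA of 3 to 5 mice was combined into each pool and read on 1 Affymetrix Mouse Genome 430 2.0 array. No hour was sampled more than once within a cycle, so p-values measure the spread between neighbouring hourly pools, which may be smaller or larger than that between replicate pools of 1 hour.

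In the mammalian clock, the activators BMAL1 (encoded by Arntl) and CLOCK switch on the Per and Cry repressors, the REV-ERB receptors Nr1d1 and Nr1d2, and the PAR bZIP output factors Dbp, Tef and Hlf. PER and CRY proteins then shut the activators down, while REV-ERB and ROR receptors respectively repress and activate Arntl through a shared DNA element. Mice are active and feed mostly at night, and the liver stores glycogen, makes lipids and secretes bile in step with feeding and with this clock.

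Among the 4 windows, CT61 to CT64 stood apart. The 75th percentile of intensity of an array was 797 to 840 in CT61 to CT64 and 891 to 1040 in the other 12 pools, the array median was 106 to 110 against 95.3 to 105, and the median correlation with other arrays was 0.984 to 0.990 against 0.990 to 0.995. The ratio of the 3′ to the 5′ probe set of Actb, which rises as RNA is cut short, was 3.15 to 3.65 against 2.5 to 3.2, whereas that of Gapdh was 0.988 to 1.11 against 0.977 to 1.09. The comparison was therefore made with all 16 pools and again without CT61 to CT64, both times with the cycle (CT18 to CT41 or CT42 to CT65) as a covariate. These fits share 12 pools and are not independent. With the cycle in the model, the fit without CT61 to CT64 took its difference from CT37 to CT40 against CT19 to CT22 only. The pools of CT43 to CT46 added to its spread but not to that difference. The early window came 18 h after the late window in each cycle, so with the cycle in the model a drift over the series is not removed, and only CT37 to CT40 and CT43 to CT46 belong to 1 night.

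With all 16 pools, 18305 of 45101 probe sets passed an adjusted p of 0.05 (limma, Benjamini-Hochberg adjustment over all probe sets; here "called"), which is 40.6%, with 14266 higher early (31.6%) and 4039 lower early (8.96%). Most of these calls were small shifts of dim probe sets. A mean intensity of 100 or less was found for 59.2% of the called probe sets, their median absolute difference was 0.0745 on the log2 scale, and 1700 differed by more than 1.5-fold, 339 of them higher and 1361 lower early. The split between directions also moved with the scaling: 77.9% of calls were higher early in the values as deposited, 55.7% after quantile normalization, 90.9% after centring on the 75th percentile and 40.0% among probe sets with a mean above 100. Centring on the 75th percentile shifted the median difference of all probe sets from 0.0352 to 0.165. Values of single genes below are from the deposited scale unless stated and were not corrected for that shift.

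Without CT61 to CT64, 880 probe sets were called (1.95%), 290 higher early (0.643%) and 590 lower early (1.31%), and 799 of these were called in the same direction with all pools. Read through 1 probe set per gene, 7433 of 18194 genes were called with all pools (40.9%), and 410 were called in both fits (2.25%), 160 higher early (0.879%) and 250 lower early (1.37%). A linear time trend in place of the cycle, which removes a steady drift, called 417 genes (2.29%), and 223 of the 410 were among them with the same sign (1.23% of all genes). The windows did not overlap in any pool for 138 genes higher early (0.758%) and 196 genes lower early (1.08%), together 334 genes (1.84%). The bar chart of calls by model shows how far the count depends on these choices, and single genes are given below with both fits.

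**Figure D1:**
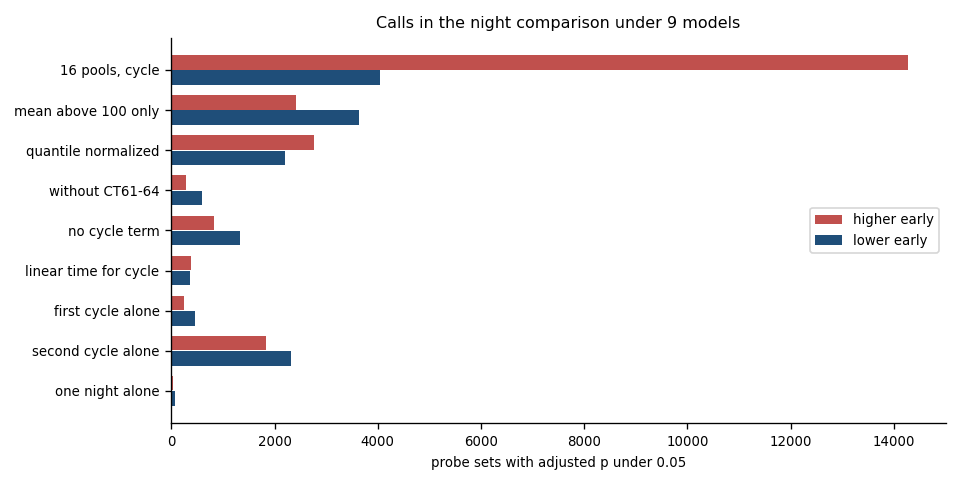
Number of probe sets with an adjusted p under 0.05 (x axis) in 9 limma models of the early against late subjective night (y axis), red for higher early and blue for lower early. The 14266 calls higher early with all 16 pools drop to 290 without CT61 to CT64 and to 384 with a linear time trend, whereas calls lower early drop from 4039 to 590 and 368.

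Genes called in both fits were looked up in a table of RefSeq promoters (GRCm38.p6), of which the 250 bases before each gene start were searched on both strands. The E-box bound by CLOCK and BMAL1, CACGTG, was present for 14.6% of the 130 genes higher early with a promoter in the table, 7.39% of the 203 genes lower early and 8.73% of the 14453 measured genes. The element shared by REV-ERB and ROR was searched as TAGGTCA and TGGGTCA. The form TGGGTCA was present for 5.38%, 7.88% and 3.58% of these genes, and TAGGTCA for 1.54%, 3.45% and 2.23%. The D-box of the PAR bZIP factors, TTANGTAA, was present for 4.62%, 2.96% and 1.9%, and the short ER stress site ACGTG, which every E-box also contains, for 36.9%, 19.2% and 22.5%. Among all 32851 promoters of the table, whether measured or not, the shares were 6.02% for CACGTG, 3.24% for TGGGTCA, 2.23% for TAGGTCA, 2.06% for TTANGTAA and 16.6% for ACGTG. The full ER stress element, the heat shock element and the cyclic AMP element were searched too. The full ER stress element was present for 0.0% of the genes higher early, 0.0% of those lower early and 0.131% of measured genes. In the same order, the heat shock element was present for 0.769%, 0.0% and 0.484%, and the cyclic AMP element for 0.0%, 1.97% and 2.5%. The genes called in both fits were chosen by their expression in these pools, and no test was made of the shares. A match is a string of letters and not a shown binding site. Promoters were found for 117 of the 151 genes picked by the naming rule.

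Promoters of 5 genes called in both fits are printed because they carry these motifs within the 250 bases searched. Each runs 5′ to 3′ on the strand of the gene and ends at the base before its start, with the motifs in capitals. Slc16a12, a monocarboxylate transporter gene higher early (chr19:34747329-34747578, minus strand), had an E-box whose first base lay 240 bases before the start and a D-box at 76 bases, the latter read on the opposite strand. Dnajb9, an ER co-chaperone gene higher early (chr12:44210069-44210318, minus strand), had an E-box at 107 bases. Cry1, a clock repressor lower early (chr10:85185055-85185304, minus strand), also had an E-box, at 60 bases, so the E-box occurred in both directions of change. Nfil3, which encodes a repressor that competes for D-boxes and was lower early (chr13:52981040-52981289, minus strand), had TAGGTCA on the opposite strand at 12 bases. Insig2, a sterol sensor gene lower early (chr1:121328025-121328274, minus strand), had TGGGTCA on the opposite strand at 199 bases.
Slc16a12: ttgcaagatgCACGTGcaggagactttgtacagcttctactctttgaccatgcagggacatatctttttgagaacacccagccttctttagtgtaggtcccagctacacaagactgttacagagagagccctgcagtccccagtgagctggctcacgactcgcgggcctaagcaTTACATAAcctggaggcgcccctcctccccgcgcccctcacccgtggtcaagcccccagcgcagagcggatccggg
Dnajb9: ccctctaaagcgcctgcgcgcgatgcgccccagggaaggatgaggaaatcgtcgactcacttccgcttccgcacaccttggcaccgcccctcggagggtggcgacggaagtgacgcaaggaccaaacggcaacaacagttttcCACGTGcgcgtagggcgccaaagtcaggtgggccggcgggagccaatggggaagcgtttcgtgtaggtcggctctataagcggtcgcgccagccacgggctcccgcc
Cry1: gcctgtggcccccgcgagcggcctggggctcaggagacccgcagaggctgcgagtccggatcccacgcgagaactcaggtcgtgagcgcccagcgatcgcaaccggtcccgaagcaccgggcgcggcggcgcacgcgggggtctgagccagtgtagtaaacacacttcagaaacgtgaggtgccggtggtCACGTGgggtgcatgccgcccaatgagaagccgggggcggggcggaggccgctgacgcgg
Nfil3: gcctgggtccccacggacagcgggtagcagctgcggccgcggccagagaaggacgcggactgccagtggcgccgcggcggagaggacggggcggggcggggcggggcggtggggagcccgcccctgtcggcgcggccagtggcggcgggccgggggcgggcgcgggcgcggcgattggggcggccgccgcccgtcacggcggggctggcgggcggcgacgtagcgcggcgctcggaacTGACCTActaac
Insig2: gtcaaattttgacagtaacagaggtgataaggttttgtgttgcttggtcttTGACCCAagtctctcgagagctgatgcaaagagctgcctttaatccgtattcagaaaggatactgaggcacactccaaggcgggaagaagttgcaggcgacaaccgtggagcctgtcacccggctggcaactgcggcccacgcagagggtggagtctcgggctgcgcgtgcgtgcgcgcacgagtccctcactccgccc

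Of the clock activators, 3 of 4 measured genes were lower early and none higher, against 11.9% and 29.0% of all genes. In both fits 2 of the 3 were lower, against 1.37% of all genes. Arntl reached its lowest, median and highest intensity in the early pools at 285, 831 and 1555, and in the late pools at 3299, 4032 and 4860. The windows did not overlap, and Arntl was 5.85-fold lower early (-2.55 ± 0.34 on the log2 scale, standard error, limma, adjusted p = 0.000351; without CT61 to CT64 -2.53, adjusted p = 0.0229). Within both early windows each hour was above the one before, from 324 at CT37 to 1555 at CT40 and from 285 at CT61 to 1050 at CT64, so that hours inside a window also differed. Rora, the ROR receptor that activates Arntl, lay between 7888 and 10150 early, with a median of 8895, and between 12614 and 17247 late, with a median of 14407. It was 1.65-fold lower early with no overlap (-0.72 ± 0.07, adjusted p = 6.49e-05, and 0.00515 without CT61 to CT64). Clock was 1.46-fold lower early (-0.54 ± 0.12, adjusted p = 0.00843), with a single-fit call only, as its adjusted p was 0.0632 without CT61 to CT64, and its windows overlapped. Npas2, which can take the place of Clock, was dim, at 68.8 to 88.8 early and 70.2 to 164.1 late, and was not called (-0.37, adjusted p = 0.0769).

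The repressors split. Of 10 measured genes, 5 were higher early, 2 were lower and 3 were not called, against 29.0% higher and 11.9% lower among all genes. In both fits 2 were higher and 1 lower, against 0.879% and 1.37% of all genes. Per2 spanned 1101 to 2324 early, with a median of 1853, and 176 to 856 late, with a median of 459, without overlap, a 3.69-fold difference (1.88 ± 0.30, adjusted p = 0.00138, and 0.0419 without CT61 to CT64). Nr1d2, which encodes REV-ERB beta, spanned 19209 to 44397 early and 7393 to 14889 late, again without overlap, and was 2.77-fold higher early (1.47 ± 0.19, adjusted p = 0.00027, and 0.021 without CT61 to CT64). Cry1 went the opposite way to Per2, from 2241 to 7103 early, with a median of 5037, to between 7636 and 11662 late, with a median of 10657. The Cry1 windows did not overlap and the gene was 2.18-fold lower early (-1.12 ± 0.17, adjusted p = 0.000924, and 0.0281 without CT61 to CT64; 0.0707 with a linear time trend).

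Per3 (0.50, adjusted p = 0.0211), Ciart, a repressor that binds CLOCK and BMAL1 (1.29, adjusted p = 0.0169), Bhlhe41 (0.03, adjusted p = 0.0252) and Cry2 (-0.32, adjusted p = 0.0228) were called with all pools only, with adjusted p from 0.149 to 0.514 without CT61 to CT64. The Bhlhe41 probe set was at 54.7 to 58.2 in all 16 pools, near the background, and its difference turned to -0.003 after quantile normalization. Ciart was at 113 to 1102 early and 80.7 to 111.1 late without overlap, with its highest value at CT37. Per1 (0.17, adjusted p = 0.156) and Nr1d1 (0.23, adjusted p = 0.0927) were not called, with medians of 503 and 123 early and 488 and 116 late. Bhlhe40, a repressor that acts at E-boxes, was not called with all pools (0.26, adjusted p = 0.289) but was without CT61 to CT64 (0.84, adjusted p = 0.0231). Its change of 0.84 in CT37 to CT40 against CT19 to CT22 turned to -0.31 in the later cycle, and that difference was called by the interaction of window and cycle (adjusted p = 0.0383).

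Dbp had the largest difference of the bright genes higher early, and Nfil3 was lower early. Dbp lay at 6831 to 47247 early, with a median of 11993, and at 971 to 2333 late, with a median of 1335, with no overlap and a 9.74-fold difference (3.28 ± 0.39, adjusted p = 0.000164, and 0.0112 without CT61 to CT64). Nfil3 lay at 586 to 2337 early, with a median of 1615, and at 3782 to 5392 late, with a median of 4581, with no overlap and a 3.08-fold difference in the other direction (-1.62 ± 0.19, adjusted p = 0.000152, and 0.00126 without CT61 to CT64). The activating factor Dbp and the factor Nfil3 that represses the same D-box sites thus moved in opposite directions between these hours. Tef was 1.53-fold higher early with all pools (0.61 ± 0.14, adjusted p = 0.00908) and had an adjusted p of 0.0953 without CT61 to CT64. Hlf was not called (0.15, adjusted p = 0.422), and its change was 0.46 in the first but -0.16 in the later cycle.

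**Figure D2:**
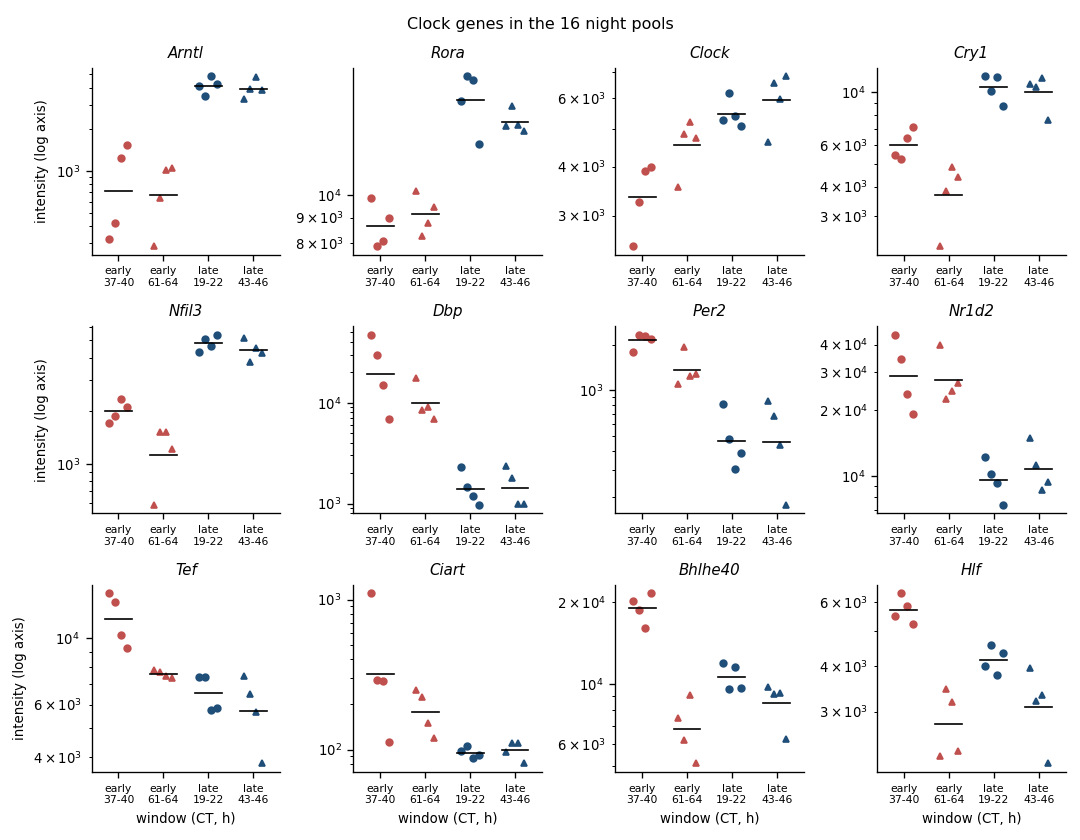
Intensity on a log axis of 12 clock genes in each of the 16 pools, by window (x axis, CT in hours), red for early and blue for late, circles for the first cycle and triangles for the second, with black lines at the geometric means. Arntl, Rora, Cry1 and Nfil3 are lower in every early pool than in any late pool, Dbp, Per2, Nr1d2 and Ciart are higher, and Bhlhe40 changes by 0.84 in the cycle of CT37 to CT40 but by -0.31 in that of CT61 to CT64.

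The genes with the largest differences outside the clock had varied roles. They are the 10 with the largest difference in each direction among those called, with a mean above 100 and of the same sign in both cycles; Dbp, Per2, Nr1d2 and Arntl, given above, and Hspa1b, given with the heat shock genes, are also among these 10. Higher early were Nrg4, which encodes the secreted growth factor neuregulin 4 (2.30 ± 0.32, 4.93-fold, adjusted p = 0.000486), and Noct, the Nocturnin gene (2.21 ± 0.35, 4.64-fold, adjusted p = 0.00134). Nrg4 was at 1016 to 4152 early and 313 to 688 late, and Noct at 3385 to 27080 early and 771 to 3278 late. Neither gene overlapped between windows, and both were called without CT61 to CT64 as well (adjusted p = 0.0429 and 0.0355). Angptl8, a feeding-induced inhibitor of lipoprotein lipase, was at 10930 to 36002 early, with a median of 28863, and at 3092 to 9472 late, with a median of 6478. It was 4.11-fold higher early without overlap (2.04 ± 0.25, adjusted p = 0.00022, and 0.0114 without CT61 to CT64). Mfsd2a, a lysophospholipid transporter gene, was higher early in both fits (1.81 ± 0.50, adjusted p = 0.0171, and 0.0394 without CT61 to CT64) although its windows overlapped, at 606 to 19722 early and 488 to 1572 late. The endothelial lipase gene Lipg (1.77, adjusted p = 0.0149) and G0s2, an inhibitor of triglyceride lipase (1.52, adjusted p = 0.00544), were called with all pools only (adjusted p = 0.124 and 0.098 without CT61 to CT64).

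In the other direction, Egr1, an immediate early transcription factor that responds to growth factors and feeding, was at 84.0 to 767.8 early, with a median of 288, and at 1529 to 5840 late, with a median of 2349. It was 9.81-fold lower early without overlap (-3.29 ± 0.34, adjusted p = 6.37e-05, and 0.0114 without CT61 to CT64). Elovl3, a fatty acid elongase, was at 9478 to 23279 early, with a median of 11959, and at 67233 to 127449 late, with a median of 111470. It was 7.97-fold lower early without overlap, with the smallest adjusted p of all named genes (-2.99 ± 0.18, adjusted p = 2.82e-06, and 0.0012 without CT61 to CT64). Rnf125, a ubiquitin ligase gene, was at 11169 to 26155 early and 74100 to 112681 late, again apart, and was 5.52-fold lower early (-2.47 ± 0.16; 0.0012 as adjusted p without CT61 to CT64). Denn2b (-2.11), Eps8l2 (-2.09) and Rfx4 (-2.08) were also lower early in both fits with no overlap between windows, and Rfx4 lay at only 81.2 to 106.9 in the early pools. With a linear time trend Eps8l2 had -1.33 and was not called (adjusted p = 0.0968). Igfbp1, an insulin-repressed secreted binding protein, ran from 778 to 28980 early and from 9454 to 61519 late, with overlap. It was called with all pools (-2.64 ± 0.69, adjusted p = 0.0143) and had an adjusted p of 0.244 without CT61 to CT64. Pnkd (-2.15; 0.0935 without CT61 to CT64) and the water channel gene Aqp8 (-2.14; 0.0844) were called with all pools only.

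The cytosolic heat shock proteins, which fold and refold proteins of the cytosol, were mostly higher early among those called. Of 17 measured members, 8 were higher and 1 was lower early, against 29.0% and 11.9% of all genes, and 6 were higher and none lower in both fits, against 0.879% and 1.37%. The median difference of the list was 0.35 with all pools and 0.73 without CT61 to CT64, beside 0.03 for all genes in either fit. Hspa1b, an inducible Hsp70 whose signal may hold that of its near-identical copy Hspa1a, was at 31302 to 125676 early, with a median of 58375, and at 5361 to 12475 late, with a median of 7723. The windows did not overlap and the difference was 7.35-fold (2.88 ± 0.27, adjusted p = 3.77e-05, and 0.0012 without CT61 to CT64). Hspa8, the constitutive Hsp70, was at 321391 to 497902 early and 150383 to 229270 late, 2.20-fold higher early (1.14 ± 0.10, adjusted p = 3.16e-05, and 0.00372 without CT61 to CT64). The Hsp40 co-chaperone Dnaja1 (1.11 ± 0.10, 2.16-fold) and Chordc1, a partner of Hsp90 (1.08 ± 0.12, 2.11-fold), were called in both fits with no overlap, as Hspa8 was. The exception was Hspb1, a small heat shock protein, at 2545 to 9398 early and 8310 to 17221 late (-1.15 ± 0.24, adjusted p = 0.0063, and 0.205 without CT61 to CT64). With a linear time trend, 6 members were higher and none lower early, where 2.29% of all genes were called in either direction.

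Genes of cholesterol synthesis and uptake were mostly lower early among those called. Of 19 measured members, 13 were lower and 1 was higher early, against 11.9% and 29.0% of all genes, and 6 were lower and none higher in both fits, against 1.37% and 0.879%, with a median of -0.48 with all pools and -0.55 without CT61 to CT64. Insig2, which holds the sterol regulator SREBP in the ER, was at 17606 to 28577 early, with a median of 22840, and at 47335 to 79131 late, with a median of 68975. It was 3.02-fold lower early without overlap (-1.59 ± 0.13, adjusted p = 1.37e-05, and 0.00235 without CT61 to CT64). Pmvk (2.26-fold, adjusted p = 0.000438) and Fdps (1.81-fold, adjusted p = 0.000404), enzymes of the mevalonate pathway, were lower early with no overlap, and Hmgcs1, which makes HMG-CoA (2.23-fold, adjusted p = 0.000588), with a slight overlap at 44966 to 104567 early and 99357 to 172243 late. All 3 enzymes were called without CT61 to CT64 too, at adjusted p of 0.0298, 0.0112 and 0.00703. Insig1, a relative of Insig2, moved against the rest with all pools (0.35 ± 0.11, adjusted p = 0.0232, and 0.244 without CT61 to CT64). With a linear time trend 4 members were lower early and none higher, where 2.29% of all genes were called in either direction.

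**Figure D3:**
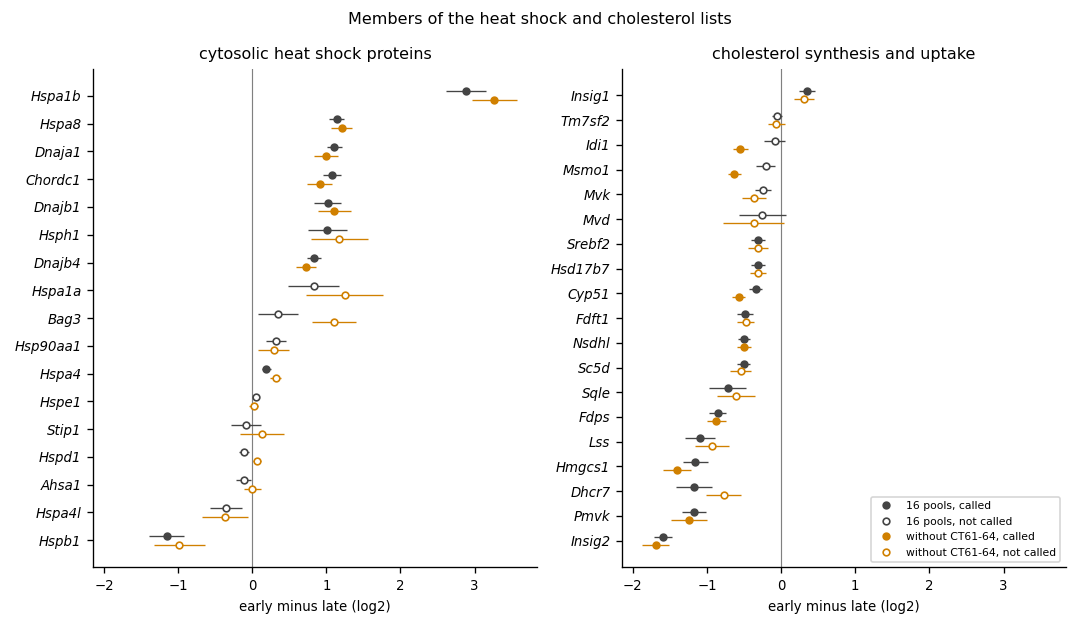
Difference between early and late pools on the log2 scale (x axis, bars are standard errors of limma) for each measured gene of the cytosolic heat shock list and the cholesterol list, dark for 16 pools and orange without CT61 to CT64, filled where the adjusted p was under 0.05. In the heat shock list 6 genes are filled in both colours above 0, and in the cholesterol list 6 genes are filled in both colours below 0.

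Chaperones and folding enzymes of the ER lumen were called in both directions. Of 23 measured members, 7 were higher and 8 lower early, against 29.0% and 11.9% of all genes, and 3 were higher and 1 lower in both fits, against 0.879% and 1.37%, with a median of -0.19. Centring on the 75th percentile gave 9 higher and 5 lower, and quantile normalization 6 and 4. Of all 45101 probe sets, centring called 27766 higher and 2784 lower, and quantile normalization 2761 and 2199. Dnajb9, a co-chaperone of the ER Hsp70, was at 38266 to 53829 early, with a median of 42251, and at 13049 to 26573 late, with a median of 17868, a 2.40-fold difference without overlap (1.27 ± 0.12, adjusted p = 4.09e-05, and 0.00961 without CT61 to CT64). Hspa13, another Hsp70 relative of the ER (0.71 ± 0.09), and the oxidase Ero1a (0.41 ± 0.08) were higher early in both fits, and Sil1, the nucleotide exchange factor of BiP, was lower (-0.60 ± 0.09, adjusted p = 0.00125, and 0.0475 without CT61 to CT64; 0.568 with a linear time trend). Hspa5, which encodes BiP itself, was at 178776 to 337963 early and 149899 to 278037 late and was not called (0.34, adjusted p = 0.0597). Edem3, of the degradation of misfolded ER proteins, was 1.32-fold higher early in both fits without overlap, at 7795 to 10249 early and 6392 to 7773 late (0.40 ± 0.06, adjusted p = 0.000626).

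Most calls among genes of fatty acid synthesis were lower early and were made with CT61 to CT64 only. Of 22 genes of fatty acid and triglyceride synthesis, 10 were lower and 4 higher, against 11.9% and 29.0% of all genes. Only Elovl3 and Elovl5 were lower in both fits, against 1.37% of all genes, and the other calls were not made without CT61 to CT64. The list median was -0.23 with all pools and 0.01 without them. The elongase Elovl5 was at 28027 to 61129 early and 58423 to 114944 late (-1.24 ± 0.13, adjusted p = 6.86e-05, and 0.0263 without CT61 to CT64), with -0.67 within the night of CT37 to CT46. Mlxipl, the glucose-sensing factor ChREBP (-0.93), and the malic enzyme Me1 (-0.74) had adjusted p of 0.00128 and 0.00383 with all pools and of 0.111 and 0.217 without. Of 12 bile acid genes, 4 were lower and 3 higher early, against the same shares of all genes, with a median of -0.04. Centring on the 75th percentile turned this to 4 lower and 5 higher with a median of 0.09, and quantile normalization gave 3 of each. Of all 45101 probe sets, centring called 2784 lower and 27766 higher, and quantile normalization 2199 and 2761. Cyp8b1, the 12-alpha-hydroxylase that sets the bile acid mixture, was at 12940 to 40622 early, with a median of 23587, and at 51414 to 72008 late, with a median of 61365, without overlap (2.57-fold lower early, -1.36 ± 0.16, adjusted p = 0.000165, and 0.00913 without CT61 to CT64), and had -0.90 with a linear time trend. The bile salt export pump gene Abcb11 was 1.72-fold lower early in both fits without overlap (-0.78 ± 0.11). The sterol exporter gene Abcg5 was higher with all pools only (0.67, adjusted p = 0.00764, and 0.174 without CT61 to CT64), and Cyp27a1 lower with all pools only (-0.47, adjusted p = 0.011; 0.189).

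Single genes of glycogen storage and NAD salvage were higher early, while their lists were called in both directions. Of 16 genes of gluconeogenesis, glycolysis and glycogen, 5 were higher and 6 lower, against 29.0% and 11.9% of all genes, with a median of -0.10, and 2 were higher and none lower in both fits, against 0.879% and 1.37%. Centring on the 75th percentile turned the list to 6 higher and 5 lower with a median of 0.03. That centring called 27766 of all 45101 probe sets higher and 2784 lower. The 2 genes higher in both fits were Gys2, the liver glycogen synthase, and Ugp2, which makes its substrate UDP-glucose. Gys2 was at 30837 to 41532 early, with a median of 34777, and at 14973 to 26415 late, with a median of 20334 (1.76-fold, 0.82 ± 0.11, adjusted p = 0.000386, and 0.0338 without CT61 to CT64). Ugp2 was at 119785 to 169331 early and 89238 to 112604 late (1.38-fold, adjusted p = 0.0015, and 0.0292 without CT61 to CT64), and neither gene overlapped between windows. Ppp1r3c, a subunit that targets phosphatase to glycogen, was 2.67-fold lower early with all pools (-1.42 ± 0.22, adjusted p = 0.001) and had an adjusted p of 0.0708 without CT61 to CT64. Of 13 genes of NAD salvage and sirtuins, 3 were higher and 4 lower, against 29.0% and 11.9% of all genes. After centring on the 75th percentile 4 were higher and 2 lower, beside the same 27766 and 2784 of 45101 probe sets. In both fits 2 were higher and none lower, against 0.879% and 1.37% of all genes. These were Nampt, whose enzyme limits the salvage of NAD (0.98 ± 0.12, 1.97-fold, adjusted p = 0.000157), and Nmrk1, a nicotinamide riboside kinase (0.98 ± 0.11, 1.98-fold, adjusted p = 0.000104). Nampt was at 12474 to 19837 early and 6339 to 9994 late, and Nmrk1 at 9978 to 14933 early and 4928 to 8482 late, both without overlap.

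Of 16 genes of the insulin and feeding response, 10 were lower early and none higher, against 11.9% and 29.0% of all genes. Only Egr1 and Sesn3, of the sestrin family (-0.80 ± 0.08, adjusted p = 3.77e-05, and 0.00375 without CT61 to CT64), were lower in both fits, against 1.37% of all genes. Sesn3 had -0.42 with a linear time trend and -0.28 within the night of CT37 to CT46. The list median was -0.55 with all pools and -0.26 without CT61 to CT64. Of 24 ribosome biogenesis factors, 10 were higher and none lower with all pools, a called share of 41.7% against 40.9% of all genes, with a median of 0.14, and 1 was higher in both fits, 4.17% against 2.25%. The nucleolar proteins Nop56 (0.76, adjusted p = 0.000841, and 0.0749 without CT61 to CT64) and Wdr12 (0.60, adjusted p = 0.000639; 0.0792) had the smallest p among them but were not called without CT61 to CT64. Of 19 aminoacyl-tRNA synthetases, 8 were lower and 3 higher, against 11.9% and 29.0% of all genes. Only Tars, the threonyl-tRNA synthetase, was lower in both fits, against 1.37% of all genes, at 13697 to 20984 early and 27058 to 33853 late (-0.90 ± 0.09, adjusted p = 6.37e-05; 0.00852). Single genes of other lists called in both fits without overlap included Wee1, a kinase that delays mitosis (1.24, 2.36-fold higher early), Alas1, the rate-limiting enzyme of heme synthesis (1.47, 2.77-fold higher), and Hamp, the iron hormone hepcidin (0.50, 1.42-fold higher). Fgb, of the acute phase and plasma proteins, was lower early in this way (-0.19, adjusted p = 0.00314; 0.0311). Of 22 cell cycle genes 6 were higher and 2 lower with all pools, and of 14 iron, heme and metallothionein genes 4 and 3. Of 18 xenobiotic genes 4 were higher and 5 lower, and of 19 acute phase and plasma proteins 2 and 6, against 29.0% and 11.9% of all genes. The cell cycle inhibitor Cdkn1a was lower early in both fits (-1.58, adjusted p = 0.00833; 0.0179), but its early pools lay at 65.4 to 73.4, near the background, and with a linear time trend its adjusted p was 0.571. The cold-inducible RNA binding protein Cirbp (-1.60, adjusted p = 0.00338; 0.157) and the glucocorticoid target Fkbp5 (1.23, adjusted p = 0.00516; 0.101) were called with all pools only.

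Markers of liver cell types were examined beside these genes. In a bulk pool, fewer cells of a type and less RNA per cell cannot be told apart. All 5 measured hepatocyte markers were bright, with a summed intensity of 3.09e+06 to 3.24e+06 early and 3.18e+06 to 3.35e+06 late, and 2 of 5 were lower early, with a list median of -0.08. After centring on the 75th percentile 2 were higher and none lower with a median of 0.05, and after quantile normalization none was called. Marker counts on the deposited scale stand beside 29.0% higher and 11.9% lower among all genes. Those after centring stand beside 27766 higher and 2784 lower of all 45101 probe sets, and those after quantile normalization beside 2761 and 2199. Of 8 sinusoidal endothelial markers, 4 were lower and 1 higher early with all pools and none in both fits, at summed intensities of 43500 to 57700 early and 47000 to 56600 late. Among them Kdr had -0.78 and Stab2 -0.64 with all pools, and Stab2 had 0.13 between CT37 to CT40 and CT43 to CT46 of 1 night. Of 8 stellate cell and pericyte markers, 3 were lower and none higher, at 19100 to 28700 early and 25900 to 40000 late, and none in both fits. Centring on the 75th percentile gave 2 endothelial markers higher and 2 lower, and moved the stellate median from -0.12 to 0.01. Of 8 Kupffer cell markers 1, the complement gene C1qb (0.35), was higher early in both fits, against 0.879% of all genes. Summed intensities of this list were 69200 to 94200 early and 60300 to 80800 late. C1qb had 0.15 with a linear time trend (adjusted p = 0.613) and 0.09 within the night of CT37 to CT46. Of 7 lymphocyte markers 3 had a mean above 100, of 7 neutrophil markers 2, and in each list 2 were higher and none lower early, and none after quantile normalization. The 7 pancreatic acinar markers were not called, yet their summed intensity was 4660 to 8320 early and 5990 to 208000 late, the highest at CT46. Leaving out CT46 gave 19256 called probe sets in place of 18305. The part of these markers in the gene changes was not tested.

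Hours between and around the windows were read from the 48 pools, without a test. Of the 250 genes lower early in both fits, 241 had a mean level at hours 17 and 18 between the means of both windows, as had 157 of the 160 genes higher early. Hours 13 to 16 and 19 to 22 entered the choice of these genes. Their levels at hours 17 and 18 and their hours of highest and lowest level are therefore a description only. No share of all genes was counted for the levels at hours 17 and 18. The hour of the lowest level was 12 to 15 for 182 of the 250 genes, and the hour of the highest level was 20 to 23 for 72, 0 to 3 for 82 and 4 to 7 for 75 of them. Among all genes, these shares were 17% for the lowest level and 9.48%, 16.3% and 12.1% for the highest. Of the 160 genes higher early, 107 were highest at hours 12 to 15 and 23 at hours 8 to 11, against 21.5% and 10.1% of all genes. Hspa1b and Dnajb9 had a further maximum near subjective dawn, Elovl3 and Insig2 stayed high from the late night into the early day, and Cyp8b1 was lowest at CT61. Angptl8 was low in the late windows but had its highest mean level at hour 23, just after them. It was at 29202 at CT23 and 35632 at CT47, within the range of its early pools.

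**Figure D4:**
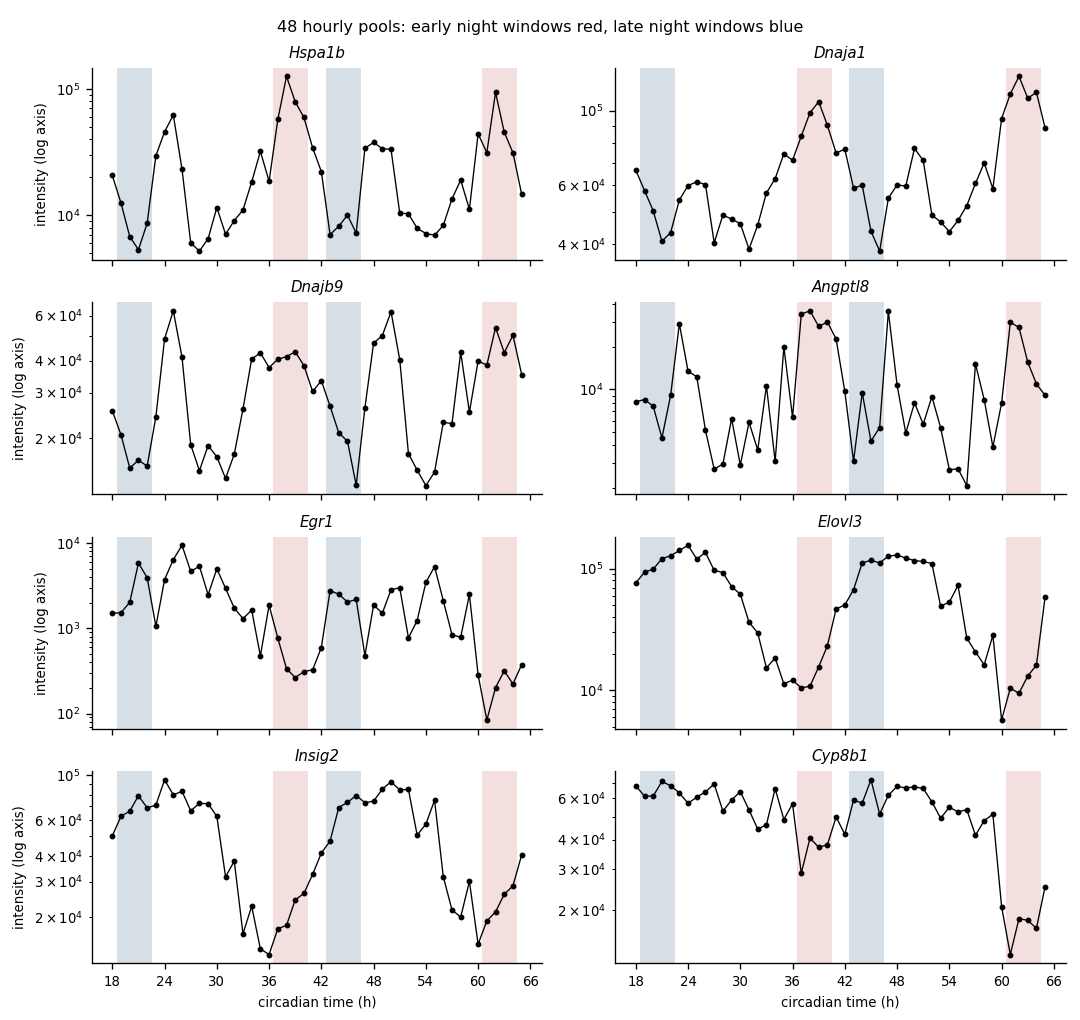
Intensity on a log axis against circadian time in hours for 8 genes over the 48 hourly pools, with early night windows shaded red and late night windows blue. Hspa1b, Dnaja1, Dnajb9 and Angptl8 are higher in all early than in all late pools, and Egr1, Elovl3, Insig2 and Cyp8b1 are lower.

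The same step by day, hours 1 to 4 against hours 7 to 10, lies 12 h from the night windows and shares no pool with them. The ratio of the 3′ to the 5′ probe set was higher at CT26 to CT28 and CT31 to CT33 than in the other 10 day pools, at 4 to 5.12 against 2.44 to 3.71 for Actb and 1.12 to 1.46 against 0.996 to 1.12 for Gapdh. Its part in the day changes was not tested. The day fit was also made without these 6 pools, a choice made once the data had been seen. By day 1041 genes were called (5.72%), 576 higher (3.17%) and 465 lower (2.56%) in the early window. Without the 6 pools, 469 probe sets were called in place of 1736. Of the 250 genes lower in the early night, 216 had a day difference of the opposite sign, 87 of these called, and 34 one of the same sign, none of these called. Of the 160 genes higher in the early night, 98 had a day difference of the opposite sign, 37 of these called, and 62 one of the same sign, 7 of these called. Without the 6 pools, 211 of the 250 and 102 of the 160 had the opposite sign, 18 and 10 of these called, and no gene with the same sign was called. The plot of night against day change shows most of these genes where the signs are opposite. No share of all genes with opposite signs was counted. Dbp was lower in the early than in the late day by 5.93 on the log2 scale (-5.93, adjusted p = 0.000344), Arntl higher (4.35, adjusted p = 0.000121) and Grk5, a G protein-coupled receptor kinase, higher (2.52, adjusted p = 0.00013). Hspa13 was higher in the early window by night (0.71) and by day (0.95, adjusted p = 0.00622), but its day change was not called without the 6 pools (0.83, adjusted p = 0.175). The night and day changes of Dnajb9 (1.27 and 0.53) and Edem3 (0.40 and 0.26) were not called different (adjusted p = 0.131 and 0.36), and their day changes alone were not called. Hspa1b (2.88 and 0.60), Hspa8 (1.14 and 0.02), Angptl8 (2.04 and 0.12) and Egr1 (-3.29 and 0.94) had a night change that differed from the day change (adjusted p = 0.00842, 6.67e-06, 0.0138 and 6.81e-06), with no call by day. Without the 6 pools the night and day changes of Angptl8 were not called different (adjusted p = 0.118), while those of Hspa1b, Hspa8 and Egr1 were.

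**Figure D5:**
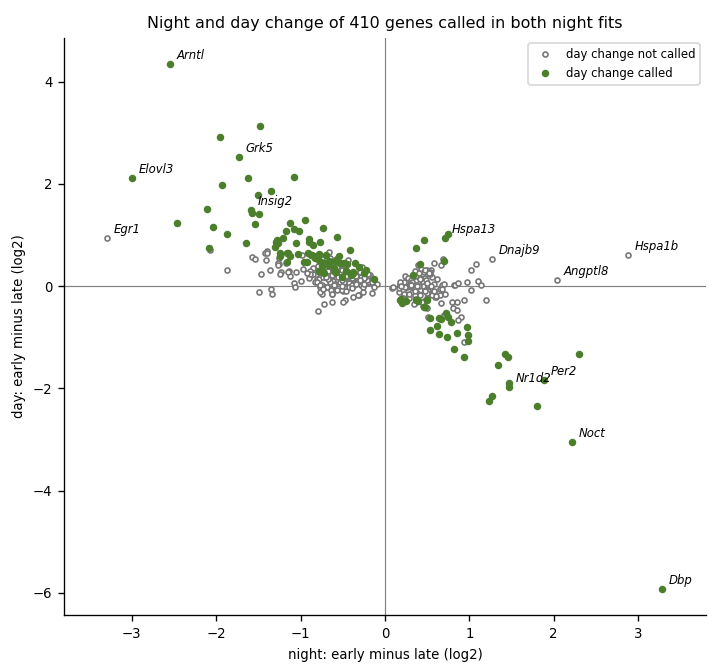
Early minus late difference on the log2 scale by night (x axis) and by day (y axis) for the 410 genes called in both night fits, filled green where the day difference had an adjusted p under 0.05. Of these, 216 of 250 genes left of 0 lie above 0 by day and 98 of 160 genes right of 0 lie below.

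The difference between night and day changes was tested across 32 pools. It was called for 16191 probe sets (35.9%) and 6697 genes (36.8%), and without CT60 to CT65 for 1483 genes (8.15%). Without the 6 day pools it was called for 2948 probe sets. The genes with the smallest p among those called by night are given here. St3gal5, a ganglioside sialyltransferase gene, was 2.17-fold higher in the early night (1.12 ± 0.14, adjusted p = 0.000298, and 0.0516 without CT61 to CT64), and its night change exceeded its day change by 2.61. Slc16a12, whose promoter is shown above, was at 27495 to 39713 early and 16473 to 21949 late, without overlap (0.79 ± 0.07, adjusted p = 3.79e-05, and 0.00881 without CT61 to CT64), and exceeded it by 1.49. Rgs16, a brake on G protein signalling, had 0.84 by night (adjusted p = 0.0116, and 0.262 without CT61 to CT64) and -3.40 by day. Grk5 was 3.32-fold lower in the early night without overlap (-1.73 ± 0.13), as were Isoc1 (-0.75 ± 0.06, 1.68-fold) and the unnamed transcript C730049O14Rik (-2.04 ± 0.16, 4.10-fold), all 3 in both fits. Isoc1 had -0.37 with a linear time trend and -0.24 within the night of CT37 to CT46.

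The size of the night change differed between cycles for 864 probe sets (1.92%), or 524 genes (2.88%). Of the 410 genes called in both fits, 5 of those higher and 14 of those lower early were among them. Among the genes named here, Eps8l2 (-1.29 and, a cycle later, -2.89), Cyp8b1 (-0.86 and then -1.86), Sil1 (-0.31 and -0.89) and Cyp27a1 (-0.15 and -0.79) were lower early by more in the second cycle, whose early window is CT61 to CT64.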

How the data were processed

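The data were liver RNA of 48 hourly pools on 48 Affymetrix Mouse Genome 430 2.0 arrays. The authors deposited 1 intensity per probe set and pool on a linear scale, from 20.6 upwards, extracted with GCRMA by the study's methods, which corrects background, normalizes between arrays and summarises probes. The submitters' processing notes name MAS5, without a version, which the methods mention for present and absent calls. The number of arrays limits the precision.

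Groups were taken from the sample titles. Intensities were transformed to log2 without a pseudocount or filter and fitted with limma 3.58.1 in R 4.3.3 (lmFit and eBayes, Benjamini-Hochberg over 45101 probe sets), with window and cycle as terms. Further limma models tested the interaction of window and cycle and the night change against the day change. The platform annotation named a single gene for 34958 probe sets, several for 932 and no gene for 9211. For each of 18194 genes the probe set with the highest mean of the 48 pools was used. The naming rule took the 10 largest differences in each direction, all clock genes, up to 4 called genes per list with the smallest p, and up to 5 in each direction where night differed most from day. Hspb1, Hspa5 and Insig1 were named after their values were seen. The windows, the 40 gene lists and the naming rule were chosen with earlier results of these data known.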

Additional observations from a re-analysis of the deposited data

Results flagged for a closer look

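Within the 8 pools of a window, the highest or lowest pool of 14 gene and window pairs out of 168 stood apart from the others by a large share of the window's range, where chance alone gives about 1 in 20. In the early window these were the highest pools of Npas2 at CT61 (gap over range 0.699), Per1 at CT37 (0.734), Nr1d1 at CT39 (0.566) and Ciart at CT37 (0.585). In the late window they were the highest pools of Per1 at CT21 (0.736), and Mlxipl (0.609) and Stab2 (0.539) at CT22. The lowest late pools were Bhlhe40 (0.592), Tef (0.584) and Hlf (0.529) at CT46, Aqp8 (0.762), Insig2 (0.545) and Ppp1r3c (0.623) at CT43, and Cirbp (0.57) at CT44.

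The change from late to early night differed between cycles for 864 probe sets. On the log2 scale, the second cycle minus the first was -1.16 for Bhlhe40, -1.60 for Eps8l2, -0.58 for Sil1, -0.99 for Cyp8b1 and -0.64 for Cyp27a1.

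The night change differed from the day change for 16191 probe sets. Night minus day was 9.21 for Dbp, 4.23 for Rgs16, 2.61 for St3gal5, 2.04 for Gys2 and 1.49 for Slc16a12. It was -5.12 for Elovl3, -4.26 for Grk5, -3.70 for Rnf125, -3.19 for C730049O14Rik and -1.05 for Isoc1.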

How the results depend on the processing

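The count of 18305 called probe sets depended on the model. It was 2145 without the cycle, 752 with linear time, 702 and 4150 in the first and the second cycle alone, 107 within 1 night, 880 without CT61 to CT64, 940 when the cycle was also left out, and 0 with limma on window means, where 4538 had an unadjusted p under 0.05. It was 4960 after quantile normalization, 30550 after centring on the 75th percentile, 6050 with a mean above 100 and 3221 at an adjusted p of 0.01. Alternatives chosen after seeing the data gave 5798 (quantile normalization with a mean above 100) and 869 (quantile normalization without CT61 to CT64). Leaving out 1 pool gave 13126 (without CT45) to 19256. With a mean above 100, the comparison without CT61 to CT64 called 1375 probe sets and the difference between cycles 1449. Night against day gave 4368 after quantile normalization, 5257 with a mean above 100 and 2684 without CT60 to CT65. Leaving out CT26 to CT28 and CT31 to CT33, also chosen after seeing the data, gave 2948 for night against day and 469 in place of 1736 by day. The causes were not tested. The labels give no replicate numbers to pair pools by, and the cycle was a block in the fit with all pools.

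Of 84 genes followed across the models, some of them not named above, 5 changed sign in some model: Cry2 with linear time (0.038), within 1 night (0.146) and without CT61 to CT64 and cycle (0.013), Bhlhe40 (-0.31) and Hlf (-0.16) in the second cycle, Bhlhe41 within 1 night (-0.0045), after quantile normalization (-0.00302) and without CT61 to CT64 as well (-0.00822), and Stab2 within 1 night (0.133). Of the 78 called among these 84 genes, 19 lost the call with linear time, and Cry2 changed sign. Signal over background limits dim probe sets such as Bhlhe41, Npas2 and Nr1d1.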
